A study of Homo sapiens with 12 samples.

Results

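The BH3-only genes and the effector genes BAX and BAK1 were followed through 12 RNA-seq libraries of 2 human cancer cell lines. The set was chosen by gene name and held 10 genes, of 36486 rows in the gene table after counts were summed by symbol. They were PMAIP1 (encoding NOXA), BBC3 (encoding PUMA), HRK, BMF, BIK, BCL2L11 (encoding BIM), BAD, BID, BAX and BAK1. TOV-112D, an ovarian adenocarcinoma line, carries the p53 mutant R175H, and all of its libraries share that genotype. These cells received DMSO, the solvent (n = 2), UCI-1001 (n = 2) or its analog UCI-1014 (n = 2) for 3 h. Saos-2, an osteosarcoma line, was sequenced as parental p53-null cells (n = 3) and as p53-WT cells (n = 3), and both groups are labelled with 16 h of induction. The p53-WT line carries a lentiviral wild-type p53 that doxycycline induces, so it differs from the parental cells by the vector as well as by p53. The sources used here do not say whether it is a clone or a pool. The labels give no dose for either compound. The study's text states a dose for UCI-1001 but none was found there for the UCI-1014 libraries, so whether the doses were matched is not known. Nothing says that replicates came from separate cultures, and p-values then measure only the spread between these libraries.

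In GRCh38 PMAIP1 (ENSG00000141682) at chr18:59899996-59904305, BIK (ENSG00000100290) at chr22:43110750-43129712, BCL2L11 (ENSG00000153094) at chr2:111119378-111168444 and BAX (ENSG00000087088) at chr19:48954815-48961798 lie on the plus strand. On the minus strand lie BBC3 (ENSG00000105327) at chr19:47220822-47232766, HRK (ENSG00000135116) at chr12:116856144-116881441, BMF (ENSG00000104081) at chr15:40087890-40108892, BAD (ENSG00000002330) at chr11:64269830-64284704, BID (ENSG00000015475) at chr22:17734138-17774770 and BAK1 (ENSG00000030110) at chr6:33572547-33580293.

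The BCL2 family sets whether the outer mitochondrial membrane stays closed. BAX and BAK1 are its effectors, which oligomerize in the membrane and let cytochrome c out. Prosurvival relatives such as BCL2 and MCL1 hold them in check, and the BH3-only proteins bind these relatives or act on the effectors directly. BBC3, PMAIP1 and BAX are textbook targets of p53, and several BH3-only genes are also induced by other stress pathways.

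For the 3 genes that were higher with UCI-1014 than with UCI-1001, PMAIP1, BBC3 and HRK, the 250 bases before the annotated transcript start are shown. BBC3 is shown at its upstream start, which held most of its transcripts in p53-WT cells but 3.88% and 6.24% of BBC3 TPM in the UCI-1014 libraries, so that window is not the one before the BBC3 transcripts that differed between the compounds. Sequences are from GRCh38 with GENCODE release 44 starts and are read 5′ to 3′ on the strand of the gene. Capitals mark matches to the motifs described after the sequences. PMAIP1 lies on the plus strand, and its window is chr18:59899746-59899995. BBC3 lies on the minus strand, with its window at chr19:47232767-47233016. HRK lies on the minus strand, and its window is chr12:116881442-116881691.
PMAIP1: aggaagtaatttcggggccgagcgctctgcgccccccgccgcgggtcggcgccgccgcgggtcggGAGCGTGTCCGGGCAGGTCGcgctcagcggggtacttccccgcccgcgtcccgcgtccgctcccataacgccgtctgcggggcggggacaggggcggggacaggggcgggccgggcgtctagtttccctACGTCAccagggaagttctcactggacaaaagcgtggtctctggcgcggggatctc
BBC3, upstream start: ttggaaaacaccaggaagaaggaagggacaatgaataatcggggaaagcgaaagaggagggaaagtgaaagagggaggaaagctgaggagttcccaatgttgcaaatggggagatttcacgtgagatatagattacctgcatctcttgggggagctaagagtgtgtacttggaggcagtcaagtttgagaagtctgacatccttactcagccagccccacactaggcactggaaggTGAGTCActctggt
HRK: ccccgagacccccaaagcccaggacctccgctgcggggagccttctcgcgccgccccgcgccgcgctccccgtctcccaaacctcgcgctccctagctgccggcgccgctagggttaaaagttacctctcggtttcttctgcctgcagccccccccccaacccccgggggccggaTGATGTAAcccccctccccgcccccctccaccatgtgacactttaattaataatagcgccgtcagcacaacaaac

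Motifs were searched on both strands of 10 windows, 1 for each gene, and in the windows of 19970 protein-coding genes. An adjacent pair of p53 decamers, with no spacer, the core C and G of each decamer kept and up to 3 mismatches over its 20 bases, was present in 0.871% of those windows. It was present before PMAIP1, 185 to 166 bases before the start. This looser search was added after promoter windows of these genes had been read. A single p53 decamer without mismatch, held by 5.16% of windows, was present before BIK and BAK1. TGACGT, the core that ATF and CREB factors read, was present in 7.65% of windows and stood before BAD and, as its reverse complement ACGTCA in the printed strand, 56 to 51 bases before PMAIP1. TGANTCA, read by AP-1 factors, was present in 5.46% of windows and stood 14 to 8 bases before the upstream start of BBC3. TGATGNAA, a composite read by C/EBP and ATF4, was present in 2.43% of windows and stood 75 to 68 bases before HRK. The heat shock element, 3 alternating copies of a core of heat shock factor, was present in 0.351% of windows and in none of the 10. The letters of one motif can lie within another, and a match describes the sequence without showing that a factor binds there.

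The libraries held 17762027 to 24629558 counts, and the 10 genes took 0.0214% to 0.0250% of them in TOV-112D and p53-null cells and 0.0744% to 0.0815% in p53-WT cells. Replicate 1 of both Saos-2 groups stood apart: against replicates 2 and 3 of its group its counts gave a chi-square of 24.6 to 41.3 per degree of freedom, where replicates 2 and 3 gave 3.95 in p53-null and 3.19 in p53-WT cells and TOV-112D replicates 2.11 to 3.91. The markers of the labelled tissues were present in part. Of the 8 osteoblast markers, SPP1 held 289 to 1009 and RUNX2 94 to 256 counts in the Saos-2 libraries, COL1A1 8 to 42 and ALPL 0 to 12, while SP7 was at 0 in all 6 and COL1A2, IBSP and BGLAP did not exceed 7 counts. The epithelial keratin KRT18 held 8068 to 12739 counts there. Of the 7 epithelial and ovarian markers, EPCAM held 34 to 57, CDH1 16 to 30 and WT1 23 to 45 counts in the TOV-112D libraries, while KRT18 was at 0, KRT8 at 1 to 10 and PAX8 and MUC16 at no more than 1. The summed level of the 8 osteoblast markers was 26.2 to 27.6 CPM (counts scaled to each library's normalized size) in p53-null and 42.1 to 50.5 CPM in p53-WT cells, that of the 7 epithelial and ovarian markers 722 to 782 and 844 to 1090 CPM, and that of the 6 leukocyte and endothelial markers 90.6 to 100 and 93.3 to 114 CPM. In TOV-112D the osteoblast markers summed to 58.2 to 63.5 CPM, above both Saos-2 groups, and the epithelial and ovarian markers to 4.12 to 6.45 CPM, far below them. The marker sums of the 2 lines were thus the reverse of their labels, but few genes carried them. COL1A1 held 48.3, 48.8 and 51.8 CPM with DMSO, UCI-1001 and UCI-1014 as means. KRT8 held 202 and 492 CPM and KRT18 539 and 452 CPM in p53-null and p53-WT cells. ALPL, COL1A2, PAX8 and WT1 also went against the labels. SPP1 was higher in Saos-2 and EPCAM and CDH1 were higher in TOV-112D, as labelled. The markers thus differed among themselves, and the identity of the lines is in doubt and was not tested. The leukocyte and endothelial sum in TOV-112D was 38.0 to 39.0 CPM with DMSO, 40.2 to 41.5 CPM with UCI-1001 and 58.7 to 64.6 CPM with UCI-1014, with CD68 as its main gene and CD3E at 0. The part of these differences in the results below was not tested. In such bulk RNA a change in the mix of cells and a change in RNA per cell cannot be told apart.

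Levels between genes were compared in TPM, the deposited abundances corrected for transcript length. BAX was the most abundant of the 10 genes in every group, from 110 ± 10.4 TPM in p53-null (SD, n = 3) to 472 ± 14.6 TPM in p53-WT cells (SD, n = 3). BAD, BID and BAK1, at 28.3 to 121 TPM as group means, came next in every group but UCI-1014. PMAIP1 ranged from 11.5 TPM with DMSO to 42.6 TPM with UCI-1014 as group means. With UCI-1014 alone of the 5 groups it passed BAK1 and, with overlapping ranges, BAD in the order of levels. HRK and BMF were the scarcest genes of p53-WT cells, at 0.804 ± 0.425 and 0.198 ± 0.141 TPM (SD, n = 3), and their ranges overlapped. BIK stood among the scarcest 3 genes of p53-null and TOV-112D cells and seventh in p53-WT cells at 24.4 ± 0.866 TPM (SD, n = 3). No library had 0 counts of any of the 10 genes, and the lowest was 4 counts. The annotated transcripts used here held 48.67% of the counts of BCL2L11 and 72.24% of those of BID, so their TPM values are too low.

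**Figure D1:**
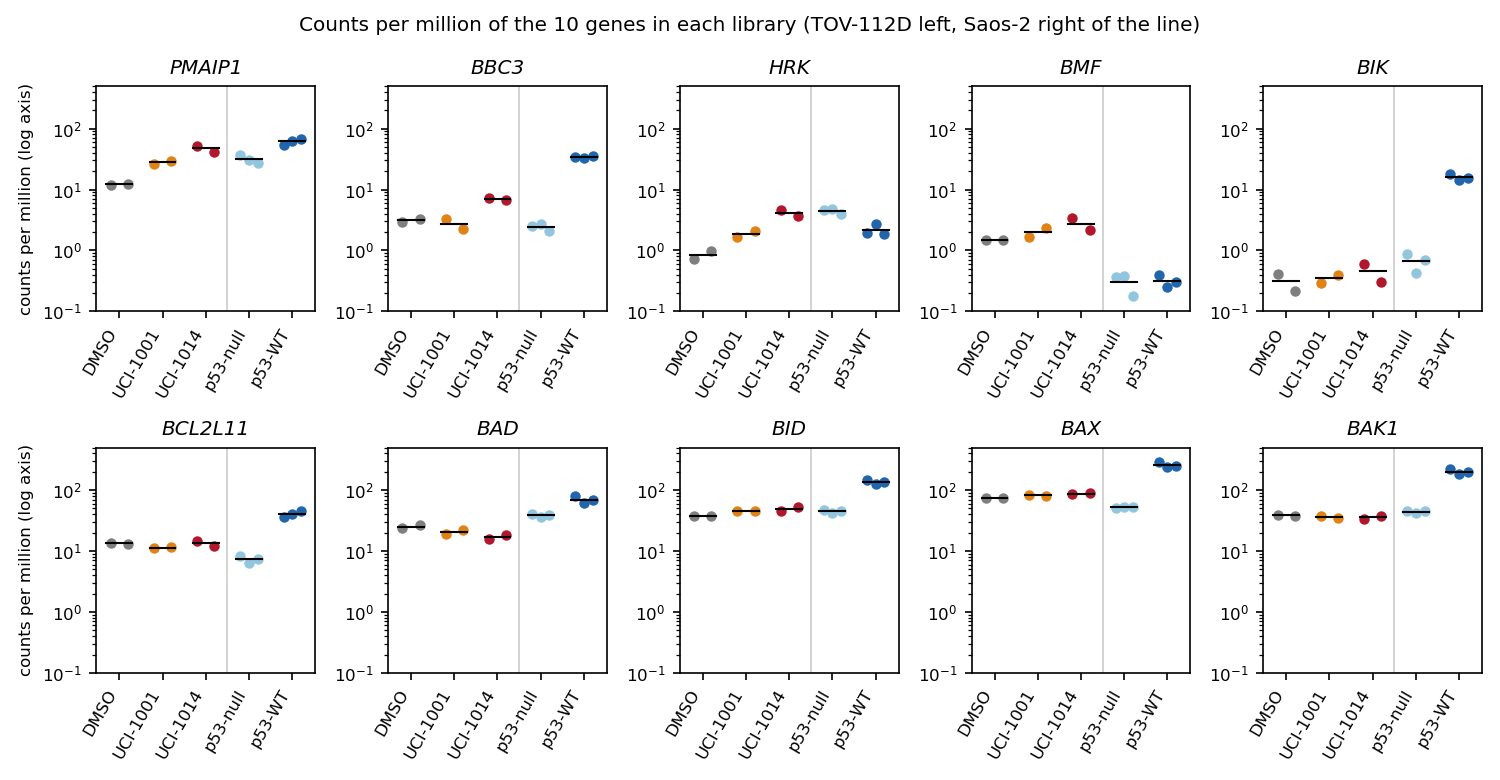
CPM (log axis) of each of the 10 genes, with 1 point per library, a black bar at the group mean and the TOV-112D groups to the left of the grey line. PMAIP1, HRK and, in smaller steps, BAX rose from DMSO through UCI-1001 to UCI-1014 without overlap of the groups. Neither of these BAX steps passed the test. The means of BMF and BID rose in the same order, but their UCI-1001 and UCI-1014 libraries overlapped. In Saos-2, 8 genes stood higher in p53-WT than in p53-null cells.

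The comparison of p53-WT with p53-null cells asks which of these genes differ where wild-type p53 was induced. Effects of p53 and of its vector cannot be told apart in it. All 9 genes that could be tested changed, with 8 higher and HRK lower in p53-WT cells, by edgeR's quasi-likelihood test with Benjamini-Hochberg adjustment over all 14275 genes. Of all genes tested, 66.5% were called in this comparison, 33.5% as higher and 33.0% as lower. The median log2 fold change was 2.19 over the 9 genes and -0.01 over all genes tested. All 9 calls were also made without replicate 1 of both groups, a fit added after the data were seen.

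BIK, a BH3-only protein of the endoplasmic reticulum, showed the steepest difference of the 9 genes. It stood at 0.875, 0.426 and 0.702 CPM in p53-null and at 18.1, 14.2 and 15.3 CPM in p53-WT libraries. The groups were far apart, with a log2 fold change of 4.56 ± 0.22 (SE) and an adjusted p of 1.68e-08. The p53-null values rest on 9 to 19 counts a library.

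BBC3, whose product binds all main prosurvival relatives, stood at 2.53, 2.75 and 2.10 CPM in p53-null libraries. The p53-WT libraries held 34.5, 33.3 and 35.4 CPM. The mean was 14.0-fold higher, with a log2 fold change of 3.80 ± 0.14 (SE) and an adjusted p of 2.51e-09. The values within each group were close together.

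BCL2L11, whose product also binds all main prosurvival relatives, rose from 8.25, 6.44 and 7.41 CPM to 36.7, 41.1 and 45.4 CPM. Its log2 fold change was 2.48 ± 0.14 (SE), with an adjusted p of 4.36e-08. BID, which caspase-8 cleaves to link death receptors to mitochondria, rose from 46.8, 42.7 and 45.8 CPM to 148, 126 and 134 CPM. Its log2 fold change was 1.59 ± 0.11 (SE), with an adjusted p of 2.34e-07. The groups did not overlap for either gene.

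The effectors moved by similar amounts. BAX stood at 51.5, 52.5 and 53.6 CPM in p53-null and 293, 242 and 248 CPM in p53-WT libraries, which gave 2.31 ± 0.11 on the log2 scale (SE, adjusted p 1.72e-08). BAK1 stood at 44.9, 42.0 and 45.4 CPM in p53-null and 223, 183 and 197 CPM in p53-WT libraries, which gave 2.19 ± 0.11 on the log2 scale (SE, adjusted p 2.66e-08). In both genes replicate 1 was the highest of the p53-WT libraries, and without replicate 1 of both groups the differences were 2.21 for BAX and 2.12 for BAK1 on the log2 scale.

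PMAIP1, whose product binds MCL1, differed less. Its p53-null libraries held 36.6, 30.5 and 26.9 CPM, and its p53-WT libraries held 54.5, 63.0 and 66.6 CPM. The log2 fold change was 0.97 ± 0.14 (SE, adjusted p 7.28e-05), and 1.18 without replicate 1 of both groups. BAD, a sensitizer controlled by phosphorylation, rose from 40.9, 36.8 and 39.1 CPM to 78.6, 62.2 and 68.7 CPM, which gave 0.84 ± 0.12 on the log2 scale (SE, adjusted p 6.79e-05).

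HRK, a sensitizer best known from neurons, was the gene that fell. It stood at 4.56, 4.83 and 3.95 CPM in p53-null and at 1.90, 2.74 and 1.85 CPM in p53-WT libraries. The groups did not overlap, and the log2 fold change was -1.04 ± 0.20 (SE, adjusted p 0.000874). With an offset for transcript length the difference was -0.84 (adjusted p 0.0472). BMF, a sensitizer linked to the cytoskeleton, was too scarce to be tested, at 0.369, 0.379 and 0.175 CPM in p53-null and 0.399, 0.249 and 0.308 CPM in p53-WT libraries, or 4 to 9 counts a library.

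**Figure D2:**
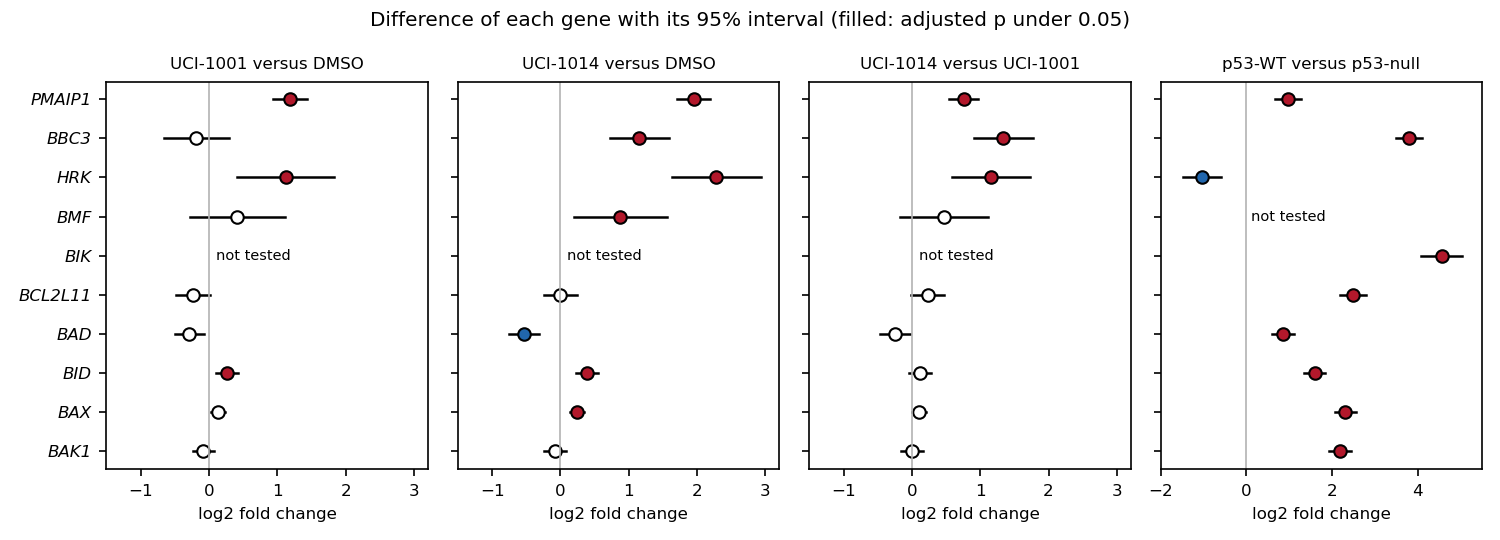
Log2 fold change of each of the 10 genes in the 4 comparisons, with bars for the 95% interval derived from edgeR's quasi-likelihood test, filled points for an adjusted p under 0.05 (red higher, blue lower) and a wider axis for p53-WT. PMAIP1, BBC3 and HRK are the filled points of the comparison of UCI-1014 with UCI-1001, and BBC3 is filled with UCI-1014 but not with UCI-1001 against DMSO.

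The treated TOV-112D cells ask whether the compounds move the same genes in cells whose p53 is mutant. With UCI-1001, 3 of the 9 genes tested rose and none fell, where 15.7% of all 14177 genes tested were called, 9.39% as higher and 6.36% as lower. The 3 were PMAIP1, HRK and BID. The median log2 fold change was 0.14 over the 9 genes and 0.00 over all genes tested. Of all genes called with UCI-1001, 59.6% were higher, a share that was 73.7% with an offset for transcript length and 83.1% in the edgeR fit of all 12 libraries. BIK was too scarce to be tested in TOV-112D, at 0.217 to 0.597 CPM over the 6 libraries, or 4 to 10 counts.

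PMAIP1 was the gene with the firmest difference. It stood at 11.96 and 12.51 CPM with DMSO and at 26.1 and 29.7 CPM with UCI-1001, so the groups lay well apart. Its mean was 2.28-fold higher, a difference of 1.19 ± 0.12 on the log2 scale (SE, adjusted p 8.41e-06), and it was called under all 15 alternatives of the fit. Transcript PMAIP1-202 held 87.9% to 96.9% of its TPM in the 6 TOV-112D libraries.

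HRK stood at 0.722 and 0.9746 CPM with DMSO and at 1.63 and 2.06 CPM with UCI-1001, which are 14 and 18 against 33 and 41 counts. The groups did not overlap, and the log2 fold change was 1.12 ± 0.33 (SE, adjusted p 0.0335). The call was lost in 8 of 15 alternatives, among them the fits without DMSO replicate 1 (0.91, adjusted p 0.223), without DMSO replicate 2 (1.35, adjusted p 0.0813) and without UCI-1001 replicate 2 (0.94, adjusted p 0.19). With an offset for transcript length the difference was 0.51 (adjusted p 0.473). BID stood at 37.4 and 37.5 CPM with DMSO and 44.97 and 45.22 CPM with UCI-1001, which gave 0.27 ± 0.08 on the log2 scale (SE, adjusted p 0.0252). Its call was lost in 7 of 14 alternatives, including the removal of any 1 of these 4 libraries (adjusted p 0.0678 to 0.161).

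BBC3 stood at 2.94 and 3.30 CPM with DMSO and at 3.22 and 2.26 CPM with UCI-1001, and the groups overlapped. Its log2 fold change was -0.18, with a 95% interval from -0.66 to 0.29 (adjusted p 0.651). BMF stood at 1.49 and 1.46 CPM with DMSO and at 1.63 and 2.31 CPM with UCI-1001, with a log2 difference of 0.41 and an interval from -0.28 to 1.11 (adjusted p 0.449). Of the others, BAX differed by 0.14 (adjusted p 0.064), BAD by -0.29 (adjusted p 0.0591), BCL2L11 by -0.23 (adjusted p 0.202) and BAK1 by -0.08 (adjusted p 0.528) on the log2 scale. None of these 6 genes passed the test, though BAD did in 5 of 15 alternatives.

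With UCI-1014, 6 of the 9 genes rose and BAD fell, where 47.1% of all genes tested were called, 23.7% as higher and 23.4% as lower. The median log2 fold change was 0.39 over the 9 genes and -0.02 over all genes tested. The same 2 DMSO libraries served as controls for both compounds.

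PMAIP1 reached 52.7 and 42.1 CPM, against 11.96 and 12.51 CPM with DMSO. Its mean was 3.86-fold higher, a difference of 1.95 ± 0.11 on the log2 scale (SE, adjusted p 3.82e-09). HRK reached 4.599 and 3.684 CPM, or 77 and 72 counts, and was 4.85-fold higher, a difference of 2.28 ± 0.30 on the log2 scale (SE, adjusted p 2.29e-05). Neither gene's groups overlapped. With the length offset the difference of HRK was 1.46 (adjusted p 0.0109). Its longest transcript, HRK-201 of 5789 bases, held 51.6% and 53.5% of HRK TPM in the DMSO libraries, 69.5% and 100% with UCI-1001, and 100% in both UCI-1014 libraries. In TPM, HRK stood at 0.424 ± 0.0847 in DMSO, 0.591 ± 0.0393 in UCI-1001 and 1.11 ± 0.190 in UCI-1014 libraries (SD, n = 2 each).

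BBC3 reached 7.17 and 6.75 CPM with UCI-1014, above both DMSO libraries. It was 2.23-fold higher, a difference of 1.16 ± 0.20 on the log2 scale (SE, adjusted p 0.000248). BMF reached 3.34 and 2.15 CPM, which gave 0.88 ± 0.32 on the log2 scale (SE, adjusted p 0.0331). That call was lost in 8 of 15 alternatives, among them the fits without DMSO replicate 1 (adjusted p 0.111), without DMSO replicate 2 (adjusted p 0.121) and without UCI-1014 replicate 1 (0.55, adjusted p 0.294).

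Smaller differences passed the test for 3 genes that were abundant. BID stood at 44.9 and 52.7 CPM, which gave 0.39 ± 0.08 on the log2 scale (SE, adjusted p 0.000664). BAX stood at 87.7 and 87.9 CPM against 74.6 and 74.0 CPM with DMSO, which gave 0.24 ± 0.05 on the log2 scale (SE, adjusted p 0.000736). The BAX call was lost in both fits of all 12 libraries (adjusted p 0.227 and 0.278). BAD fell to 15.9 and 18.6 CPM from 23.6 and 26.5 CPM, which gave -0.53 ± 0.10 on the log2 scale (SE, adjusted p 0.000507), and was lower in each library than in either control.

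The other effector and BCL2L11 did not pass the test. BAK1 stood at 39.0 and 37.8 CPM with DMSO and 34.0 and 38.2 CPM with UCI-1014, a log2 fold change of -0.09 with a 95% interval from -0.25 to 0.07 (adjusted p 0.373). BCL2L11 stood at 13.61 and 12.995 CPM with DMSO and 14.75 and 11.97 CPM with UCI-1014, a log2 fold change of 0.00 with an interval from -0.24 to 0.24 (adjusted p 0.997). The groups overlapped for both genes.

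The 2 compounds were then set against each other, as the 1 pair compared, at the same 3 h. UCI-1014 gave higher levels of 3 genes, PMAIP1, BBC3 and HRK, and lower levels of none, where 31.1% of all 14177 genes tested were called, 17.1% as higher and 13.9% as lower. Of the called genes 55.2% were thus higher, and 70.1% in the edgeR fit of all 12 libraries. PMAIP1 differed by 0.76 ± 0.10 on the log2 scale (SE, adjusted p 4.39e-05), which is 1.69-fold. BBC3 differed by 1.34 ± 0.20 (SE, adjusted p 0.000162), or 2.53-fold, and showed the largest difference of the 9 genes. HRK differed by 1.16 ± 0.27 (SE, adjusted p 0.0043), or 2.23-fold, and lost its call without UCI-1014 replicate 1 (1.01, adjusted p 0.0514) and with the length offset (0.94, adjusted p 0.0719).

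For the other 6 genes the difference between the compounds did not pass the test. Its 95% interval, not adjusted for the number of genes, ran from -0.18 to 1.11 for BMF, from -0.02 to 0.48 for BCL2L11 and from -0.46 to -0.03 for BAD. It ran from -0.04 to 0.27 for BID, from 0.0028 to 0.2028 for BAX and from -0.17 to 0.16 for BAK1. These intervals leave room for differences of BMF as large as the one measured for PMAIP1, and keep those of BAX and BAK1 at no more than 0.2028 in size. BAD (-0.25, adjusted p 0.0839) passed the threshold in 4 of 16 alternatives. Without UCI-1014 replicate 2 BCL2L11 and BAD passed it, and without UCI-1014 replicate 1 BID did, with 0.24 (adjusted p 0.023).

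BBC3 transcripts were assigned mainly to different starts in TOV-112D and p53-WT Saos-2 cells. The downstream start, 1567 bases from the most upstream one, held 82.2% and 82.7% of BBC3 TPM in the UCI-1014 libraries and 83.6% and 87.9% in the DMSO libraries. In p53-WT Saos-2 cells it held 3.12% to 4.38%, while the upstream start held 90.6% to 94.0%. The p53-null libraries, on 48 to 58 counts of BBC3, were mixed, with 54.8% to 89.4% at the upstream start, 0.003% to 38.7% at the downstream start and 4.86% to 30.2% at another start farther downstream. Transcripts from the downstream start rose from 2.61 and 2.98 TPM with DMSO to 6.01 and 5.57 TPM with UCI-1014. With UCI-1001 they stood at 2.65 and 1.88 TPM, which overlapped the DMSO libraries.

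Transcripts from the upstream start rose from 1.67, 2.70 and 1.16 TPM in p53-null to 23.8, 28.9 and 31.8 TPM in p53-WT cells. In the TOV-112D libraries they did not exceed 0.454 TPM. The TGAGTCA printed in capitals above lies before the upstream start. These shares are estimates from reads that the transcripts partly share, and in TOV-112D they rest on 45 to 132 counts of BBC3 a library. The difference between the lines was not tested, since line, treatment and time cannot be told apart.

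**Figure D3:**
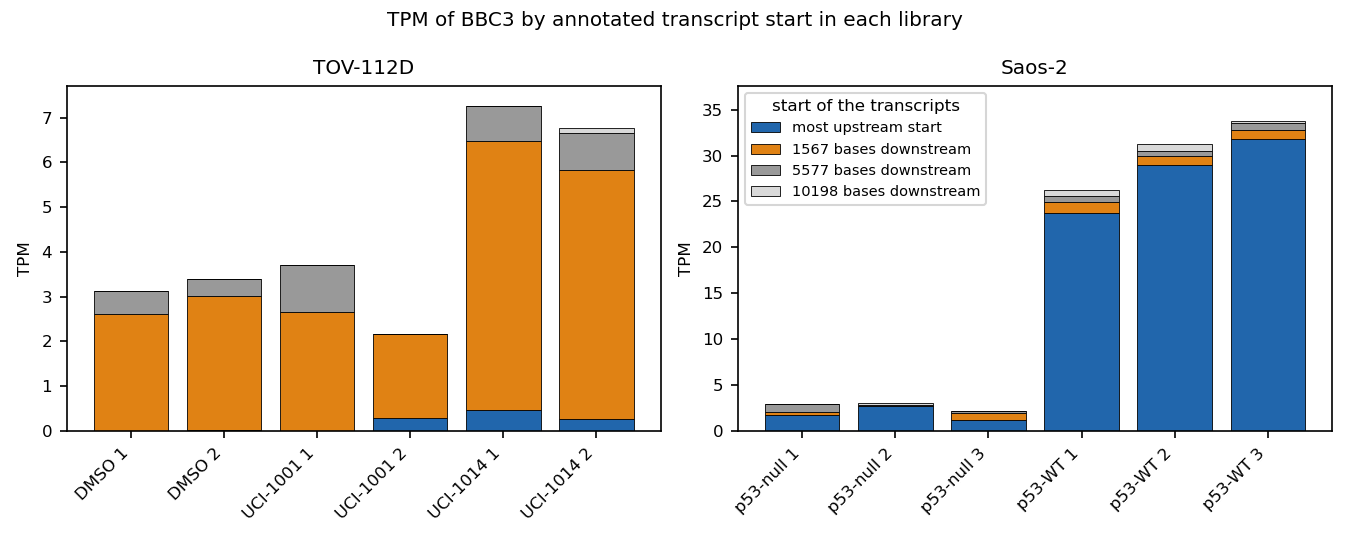
TPM of BBC3 in each library, stacked by the annotated start of its transcripts, with distances counted from the most upstream start and separate axes for the 2 lines. The downstream start (orange) fills most of each TOV-112D bar, from 71.8% to 87.9%, and the upstream start (blue) at least 90.6% of each p53-WT bar.

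The order of groups differed from gene to gene. BBC3, BIK, BCL2L11, BAD, BID, BAX and BAK1 were highest in p53-WT cells in TPM, and in all 7 that group did not overlap the next, where 14.0% of the 15325 genes tested in either line showed that pattern. This follows from the same libraries as the calls in p53-WT cells. PMAIP1 reached 42.6 ± 7.99 TPM with UCI-1014 (SD, n = 2) and 42.4 ± 8.81 TPM in p53-WT cells (SD, n = 3), and these ranges overlapped. Their controls differed, at 11.5 TPM with DMSO and 25.2 TPM in p53-null cells as means, so like levels are not like changes. Between the lines, line, treatment and time cannot be told apart in any of these orders. HRK was highest in p53-null cells, at 1.57 ± 0.252 TPM (SD, n = 3), with UCI-1014 next and no overlap between them. BMF was highest with UCI-1014 and lowest in p53-WT cells, with means of 1.29 and 0.198 TPM, but its UCI-1014 range overlapped that of UCI-1001 and its p53-WT range that of p53-null cells. BAD was the 1 gene whose TPM ranges fell from DMSO through UCI-1001 to UCI-1014 without overlap, at 57.7, 50.7 and 41.5 TPM as means.

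The prosurvival relatives were described by count beside the BH3-only genes. With UCI-1014, 2 of the 4 tested rose and 1 fell, with a median log2 fold change of 0.09, beside 23.7% higher, 23.4% lower and a median of -0.02 over all genes tested. MCL1, the partner of PMAIP1's product, rose from 313 to 844 CPM as means, which gave 1.43 ± 0.05 on the log2 scale (SE, adjusted p 5.51e-12). With UCI-1001 it rose to 419 CPM, or 0.42 ± 0.05 (SE, adjusted p 2.14e-05). PMAIP1 and MCL1 thus both rose with each compound.

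In p53-WT cells 3 of 5 prosurvival genes tested rose and BCL2 fell, where 66.5% of all genes tested were called. BCL2, the founding member of the family, stood at 9.46 CPM in p53-null and 3.18 CPM in p53-WT cells as means, which gave -1.57 ± 0.17 on the log2 scale (SE, adjusted p 8.17e-06). BCL2A1 rose from 1 to 2 to 24 to 26 counts a library (adjusted p 9.9e-06), and the p53-null counts are too few for a fold change. MCL1 differed by 0.25 ± 0.14 there and did not pass (adjusted p 0.127).

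Of 6 tested relatives that carry a BH3-like stretch or resemble BAX, such as BOK and BNIP3, 2 rose and 1 fell in p53-WT cells, 1 rose with UCI-1001, and 3 rose and 1 fell with UCI-1014, with no difference over 1 in size. Of 13 genes that act after the outer membrane opens, 4 rose and 5 fell in p53-WT cells, 2 rose and 1 fell with UCI-1001, and 5 rose and 3 fell with UCI-1014. Over all genes tested 66.5%, 15.7% and 47.1% were called in these 3 comparisons, and the counts of both lists are not read as results about them. APAF1, the scaffold of the apoptosome, rose by 3.69 ± 0.14 on the log2 scale in p53-WT cells (SE, adjusted p 3.52e-09). CASP6, a caspase of the execution phase, rose there by 3.03, and the inhibitor of apoptosis BIRC5 differed by -3.23. With UCI-1014 another inhibitor, BIRC3, rose by 2.26 ± 0.18 (SE, adjusted p 1.37e-07), while APAF1 differed by 0.05 there (adjusted p 0.513).

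Several transcription factors known to drive BH3-only genes differed with the compounds. With UCI-1014, 6 of 9 tested rose and 3 fell, where 47.1% of all genes tested were called. With UCI-1001, 5 rose and 1 fell, where 15.7% were called. DDIT3 (CHOP), a factor of the stress response, held 9.59 and 10.5 CPM in the DMSO, 90.9 and 123 CPM in the UCI-1001 and 298 and 253 CPM in the UCI-1014 libraries, log2 fold changes of 3.42 ± 0.15 and 4.78 ± 0.14 (SE, adjusted p 2.21e-09 and 2.83e-12). ATF3 rose by 4.05 and 5.72 and JUN by 3.64 and 4.12 with UCI-1001 and UCI-1014. ATF4, whose protein acts with C/EBP factors, rose by 0.44 and 1.17, and FOXO3 by 0.41 and 1.02.

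In p53-WT cells 3 of these 9 factors rose and 6 fell, where 33.5% of all genes tested were called as higher and 33.0% as lower. ATF3 rose there by 1.74 ± 0.13 on the log2 scale (SE, adjusted p 4.67e-07), while E2F1 differed by -3.39, TP73 by -1.66 and MYC by -1.55. Of the p53 targets kept as checks, CDKN1A, the p21 gene, rose by 7.01 in p53-WT cells, by 1.65 with UCI-1001 and by 3.54 with UCI-1014. MDM2, the main negative regulator of p53, rose by 4.44 in p53-WT cells but differed by 0.00 with UCI-1001 (adjusted p 0.968) and 0.05 with UCI-1014 (adjusted p 0.35).

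**Figure D4:**
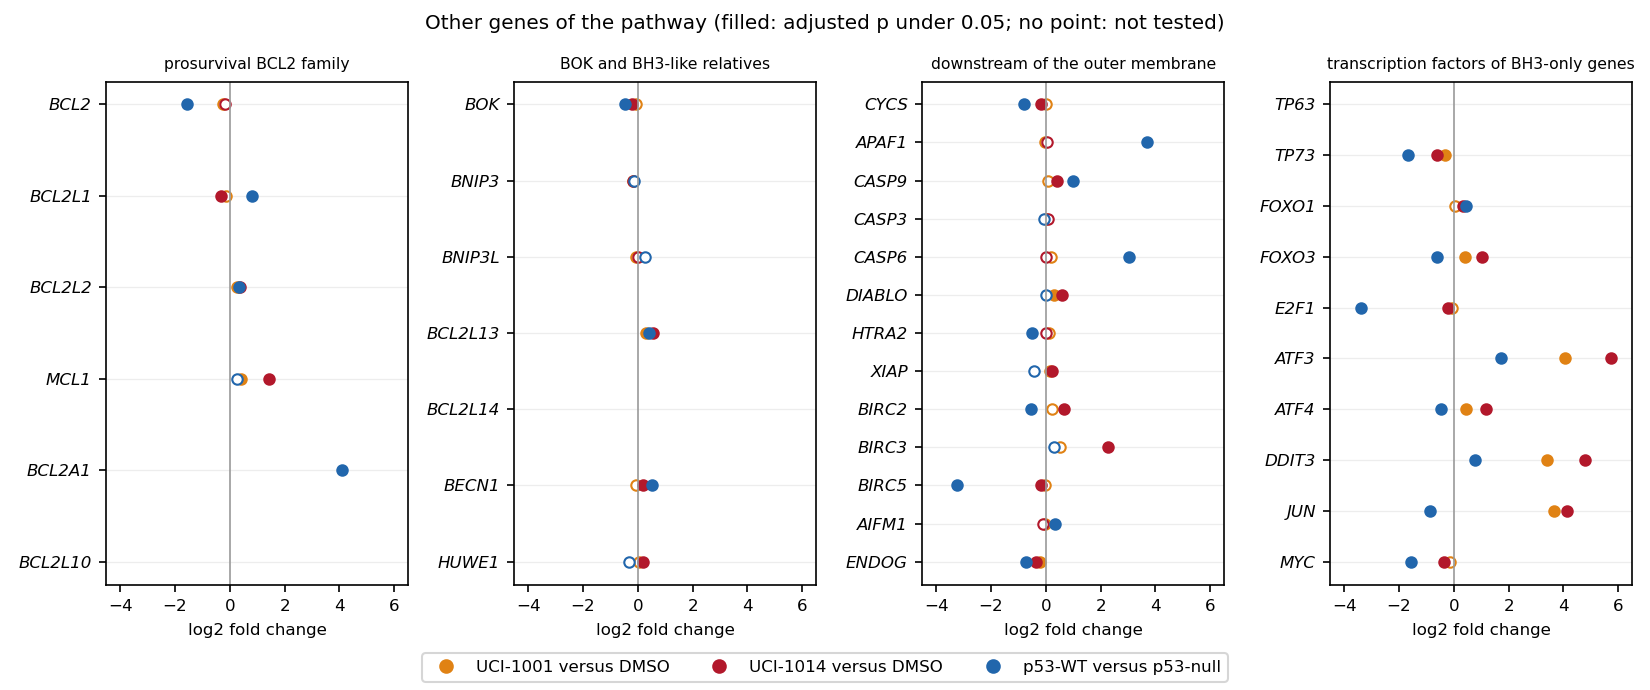
Log2 fold change of the other listed genes of the pathway in 3 comparisons, filled where the adjusted p was under 0.05 and left out where the gene was not tested. MCL1, BIRC3, ATF3, DDIT3 and JUN lie to the right with UCI-1014, and APAF1, CASP6 and, on few counts, BCL2A1 with p53-WT.

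For each of the 8 genes tested in both lines, the 2 genes most alike in log2 CPM over the 12 libraries were named, by Pearson's r among 12575 genes. All libraries of both lines enter each r, so the difference between the lines weighs in it. BAK1 was closest to GSDME and UBTD1 (both r = 0.999 when rounded), BAX to SLC9A3R1 (0.997) and CNN2 (0.996), BAD to QDPR (0.995) and SDHAF1 (0.995), and BID to ABHD4 (0.995) and AIFM2 (0.994). BCL2L11 was closest to BVES (0.994) and PRCP (0.990), BBC3 to MOB2 (0.985) and ABTB2 (0.985), PMAIP1 to AKAP10 (0.981) and DEDD2 (0.979), and HRK to EIF2S2 (0.968) and ABHD3 (0.963).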

How the data were processed

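RNA was extracted with the RNeasy kit, and libraries were made and sequenced by Novogene. The authors quantified reads against GRCh38 with kallisto 0.48.0, made integer counts per Ensembl gene from the summed estimated counts, and tested them with DESeq2 1.38.3. They deposited these gene counts, and per library the estimated counts, effective lengths and TPM of 187626 transcripts. Strand setting and annotation release are not given in the sources used here.

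Counts were summed by symbol, and 8043 of 40295 identifiers without a symbol kept their identifier. Tests used edgeR 4.0.16 under R 4.3.3 with TMM factors and filterByExpr (glmQLFit and glmQLFTest, p-values adjusted by Benjamini and Hochberg), in 1 fit of 14275 genes in Saos-2 and 1 of 14177 genes in TOV-112D, and a call at an adjusted p under 0.05. CPM use TMM library sizes, and 3 counts are 0.132 to 0.179 CPM. The scripts were tested on simulated counts. Transcripts were named by GENCODE release 44, which held 87.23% of them. Genes and lists were chosen with earlier results of these data known. Named genes are the 10 genes, listed genes called with a log2 fold change over 1 in size or set beside a result, the checks CDKN1A and MDM2, and the 2 genes most alike. Same-numbered libraries gave r of 0.0749 to 0.139 in Saos-2, where other pairs gave -0.184 to 0.132. In TOV-112D same-numbered libraries gave -0.164 to 0.0631. With 2 libraries a group, the other pairs there mirror these values with the opposite sign. Numbers were not taken as pairs in the main fits, and a block by number is given below. Other genes of these lists and another BBC3 window are not reported here.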

Additional observations from a re-analysis of the deposited data

How the results depend on the processing

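Across all alternatives run, calls of the 10 genes held in 299 of 326 instances, and 27 lost the threshold with the same direction. All 27 were in TOV-112D: HRK and BID with UCI-1001, BMF and BAX with UCI-1014, and HRK between the compounds. The alternatives share libraries, so the instances are not independent. Of uncalled values, 11 gained the threshold. The length offset covered 5 of the 10 genes in each line: it called 5 genes in p53-WT, 1 with UCI-1001 and 4 with UCI-1014. With UCI-1001, DESeq2 and both fits of all 12 libraries called 1 of the 10 genes each, and fits leaving out a library 1 to 4; leaving one out gave 3 to 5 between the compounds. Over all genes, p53-WT gave 5735 calls at an adjusted p under 0.001. UCI-1001 gave 2232 calls, 1284 with DESeq2, 431 and 308 with DESeq2 and edgeR on 12 libraries, 672 with the offset and 952 to 2538 leaving out a library. UCI-1014 gave 6677, 3470 and 3421 on 12 libraries and 3839 with the offset. The compounds differed in 4406 genes, 2891 with DESeq2, 1268 and 937 on 12 libraries and 1909 with the offset. The cause was not tested, except that the offset tests fewer genes.

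Direction reversed only in values not called, of BBC3, BCL2L11 and BAK1. BBC3 with UCI-1001 ranged from -0.46 to 0.0421 leaving out a library. BCL2L11 with UCI-1014 was 0.0156 with DESeq2, 0.0116 with RLE factors, 0.0051 by identifier, 0.0107 in the 2 groups alone, 0.0007 with the replicate block, and -0.14 to 0.16 leaving out a library. BAK1 with UCI-1014 ranged from -0.17 to 0.0038 leaving out a library. Between compounds BAK1 was 0.0025 with DESeq2, 0.0037 with RLE factors, 0.0024 by identifier, and -0.083 to 0.0868 leaving out a library. Ordering genes by CPM in place of TPM kept 4 of 10 at their place, 5 with UCI-1001.

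With the replicate number as a block, 9814 genes were called in p53-WT, 1774 with UCI-1001, 6307 with UCI-1014 and 3882 between the compounds. A block with UCI-1014 numbers crossed, chosen after seeing the data, gave 5439 between the compounds. That fit used the libraries of the 2 compounds alone, so the 2 counts differ by more than the crossing. HRK with UCI-1001 (adjusted p 0.0572) and BMF with UCI-1014 (0.0517) lost their calls under the block, and BAD gained them with UCI-1001 (0.0347) and between compounds (0.0417). Of 3 Saos-2 numbers, p53-null replicate 2 correlated best with p53-WT replicate 3. Calls on 2 libraries a group, and counts under 20 for BIK, BMF and HRK, limit what could be detected.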
